A study of Gallus gallus with 13 samples.

Results

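The 8 genes described here are a group that bone biology ties to the making and mineralising of bone matrix: IBSP, SPP1, MGP, ALPL, PHOSPHO1, SMPD3, PANX3 and IFITM5. They were chosen with earlier results of these data known. Each was looked up by name in the RNA table, as the row that carries the gene's symbol or its chicken UniProt entry (SIAL for IBSP, OSTP for SPP1, PPBT for ALPL, PHOP1 for PHOSPHO1). For each Ensembl gene 1 transcript was used, the one of highest mean level. All 8 were found, among 16737 genes, and all 8 passed the filter on low values in every comparison below. Levels are RPKM, reads scaled by transcript length and by library size, so they can be set side by side between libraries. Between genes they can be compared only roughly, since a level depends on the transcript used.

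The RNA came from limb bud mesenchyme of chicken embryos at Hamburger-Hamilton stage 24, infected with RCASBP(A) retrovirus before plating and grown for 9 days as micromass cultures, small dense drops of cells that form cartilage nodules. The virus carried FLAG-tagged mouse HOXD13 with a glutamine of its homeodomain changed to lysine (Q317K) or to arginine (Q317R), FLAG-tagged chicken PITX1, FLAG-tagged wild-type mouse HOXD13 (HOXD13 wt), or no insert (empty vector). HOXD13 is a HOX factor of the distal limb and PITX1 a homeodomain factor of the hindlimb. Each of these 5 groups has 1 RNA library of a whole culture, so every difference below lacks a replicate check, and no p-value is given. The study's other samples, chromatin immunoprecipitations and their inputs, were not used here. Library totals were 14069766 reads for Q317K, 16793118 for Q317R, 16114218 for PITX1, 14931544 for HOXD13 wt and 15274704 for the empty vector. Brackets hold 95% intervals on these reads, which cover counting error only. PITX1 itself was at 10233 RPKM in the PITX1 library and at 64.5 RPKM in the empty vector. The chicken HOXD13 row read 36.8 RPKM in Q317K, 53.7 in Q317R and 63.4 in HOXD13 wt, against 16.6 in the empty vector, although the transgene is mouse.

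Bone and hypertrophic cartilage mineralise through matrix vesicles, small particles shed by the cells in which calcium phosphate first forms. Enzymes in and on the vesicles supply phosphate and remove pyrophosphate, which blocks crystal growth. Acidic proteins in the matrix then start or restrain the growth of the crystals. In the limb these genes are used by late chondrocytes and by osteoblasts, and several of them are also active elsewhere: SPP1 in macrophages and MGP in vascular smooth muscle and cartilage.

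The Q317K culture stood apart from the other 4. In this library 6 of the 8 genes had their highest level of the 5, and 7 of 8 were at least 2-fold above the empty vector (here and in all counts, by the ratio of RPKM + 1), where 2.14% of all genes compared were. In Q317R and in HOXD13 wt none was 2-fold above the empty vector. Of all genes 1.89% and 2.28% were, so that none among 8 is near those shares. At least 2-fold below it were 6 of the 8 in Q317R (2.08% of all genes) and 5 in HOXD13 wt (2.62%). In PITX1 1 was higher by that measure (1.97%) and 3 were lower (2.80%). SPP1 and MGP departed from the other members, each in its own way. A culture holds several cell types, so that fewer cells of a type cannot be told apart from less RNA per cell. Chondrocyte markers moved as well. All 6 were at least 2-fold below the empty vector in Q317K (2.87% of all genes) and in PITX1 (2.80%). In HOXD13 wt 4 were (2.62%), and in Q317R 1 was (2.08%).

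**Figure D1:**
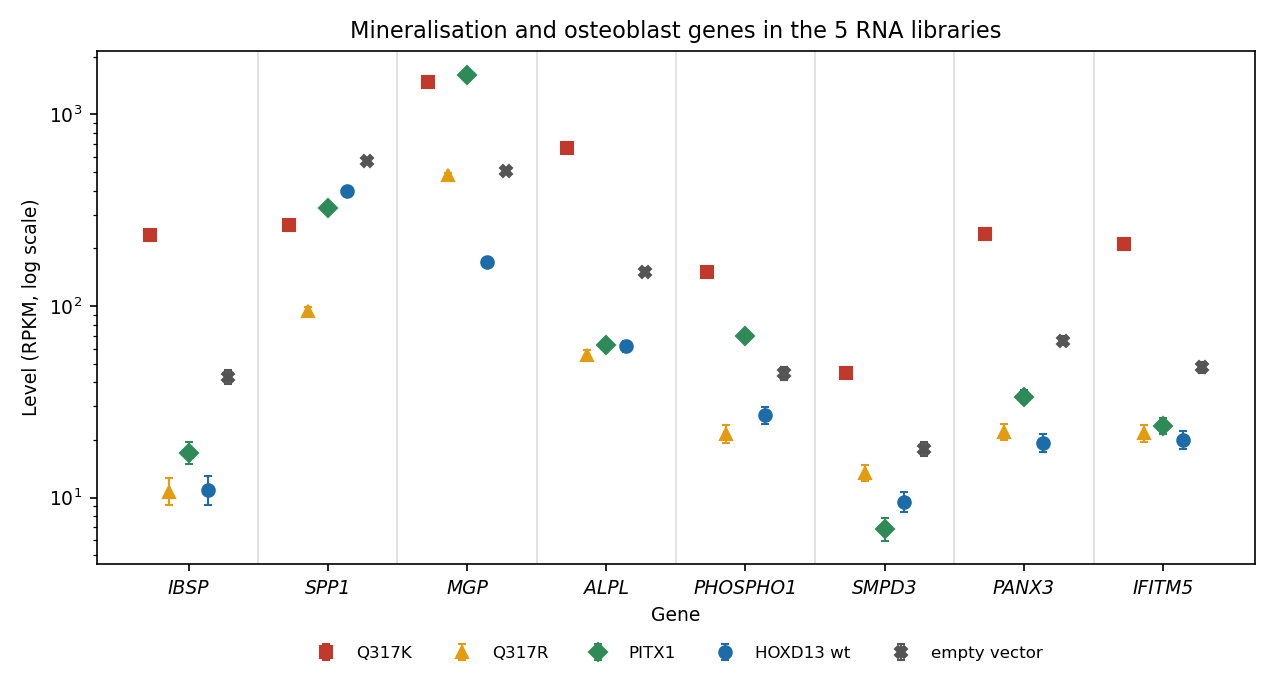
Level of each of the 8 genes (RPKM, log axis) in the Q317K, Q317R, PITX1, HOXD13 wt and empty vector libraries; points are single libraries and bars their 95% counting intervals. The Q317K square is on top for IBSP, ALPL, PHOSPHO1, SMPD3, PANX3 and IFITM5, while SPP1 is highest in the empty vector and MGP in PITX1.

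Among the acidic matrix proteins, IBSP (bone sialoprotein, which binds hydroxyapatite and cell-surface integrins) showed the widest range, 21.9-fold between its highest and lowest library. Its level was 235.5 RPKM in Q317K (2754 reads), 10.7 in Q317R (150 reads), 17.2 in PITX1 (230 reads), 11.0 in HOXD13 wt (136 reads) and 42.8 in the empty vector (543 reads). Q317K was thus far above every other library, and the counting intervals of Q317R and HOXD13 wt overlapped. IBSP was 5.51-fold higher in Q317K than in the empty vector (5.02 to 6.05), and 3.98-fold lower in Q317R (3.32 to 4.80), 2.49-fold lower in PITX1 (2.13 to 2.92) and 3.90-fold lower in HOXD13 wt (3.23 to 4.75). Directly compared, it was 21.5-fold higher in Q317K than in HOXD13 wt (18.1 to 25.7), the highest log2 ratio of all 12512 genes compared there, and 21.9-fold higher in Q317K than in Q317R (18.6 to 26.0), again the highest, of 12536. In the order of all genes by level, IBSP was number 219 in Q317K, 8216 in Q317R, 5339 in PITX1, 7918 in HOXD13 wt and 1859 in the empty vector. A second, longer IBSP transcript, of 882 bases where the one used has 831, gave 179 RPKM in Q317K, 10.5 in Q317R, 14.0 in PITX1, 9.64 in HOXD13 wt and 34.4 in the empty vector.

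SPP1 (osteopontin, a phosphoprotein of the same family that restrains crystal growth and binds cells) went a different way. It stood at 264 RPKM in Q317K, 93.9 in Q317R, 323 in PITX1, 398 in HOXD13 wt and 573 in the empty vector, and no counting intervals of neighbours in this order met. Every factor library was thus below the empty vector, Q317R most of all: 6.10-fold lower (5.80 to 6.42), the fourth lowest log2 ratio of 12842 genes. The Q317K library was 2.17-fold lower than the empty vector (2.09 to 2.25), PITX1 1.77-fold (1.72 to 1.83) and HOXD13 wt 1.44-fold (1.39 to 1.48). SPP1 was also the member that most separated the arginine form from the wild type, being 4.24-fold lower in Q317R than in HOXD13 wt (4.02 to 4.47). In gene order on the chicken assembly GRCg7b, SPP1 and IBSP are separated only by MEPE, another gene of this family. Both were below the empty vector in Q317R, PITX1 and HOXD13 wt, and they took opposite sides of it only in Q317K. The ratio of these 2 linked genes varied over the 5 libraries. SPP1 exceeded IBSP 1.12 times in Q317K, 8.74 times in Q317R, 18.8 times in PITX1, 36.3 times in HOXD13 wt and 13.4 times in the empty vector. On the other side of IBSP the nearest labelled genes, SPARCL1 and NUDT9, stayed between 3.65 and 5.82 RPKM and between 10.3 and 13.0 RPKM over the 5 libraries. On the other side of SPP1 the nearest labelled gene was the kinase PRKG2. It was at 2.98 RPKM in Q317K, 3.39 in Q317R, 3.70 in PITX1 and 4.25 in HOXD13 wt, against 10.5 in the empty vector. PRKG2 passed the filter on low values only through the empty vector, the library that all 4 comparisons share, so its calls are no parallel to SPP1. MEPE and DMP1, the other family members at this locus, were not analysed here.

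MGP (matrix Gla protein, a vitamin K-dependent protein that keeps soft tissue and cartilage from calcifying) was the one member at least 2-fold above the empty vector in both Q317K and PITX1. Its level was 1474 RPKM in Q317K, 481 in Q317R, 1600.04 in PITX1, 171 in HOXD13 wt and 507 in the empty vector. The counting intervals of Q317R and the empty vector overlapped, though the interval of their ratio, 0.95 (0.91 to 0.99), left out equality. HOXD13 wt lay alone at the bottom. MGP was 2.91-fold higher in Q317K than in the empty vector (2.81 to 3.00) and 3.15-fold higher in PITX1 (3.06 to 3.25), but 2.97-fold lower in HOXD13 wt (2.82 to 3.14). Between Q317K and PITX1 it differed by a factor of 0.92 (0.90 to 0.94). It was 2.82-fold higher in Q317R than in HOXD13 wt (2.67 to 2.98), the only one of the 8 past 2-fold upward in that comparison. At these levels MGP was among the most abundant transcripts of the cultures, number 23 of all genes in Q317K and 24 in PITX1, and number 285 in HOXD13 wt.

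ALPL is the tissue-nonspecific alkaline phosphatase, which sits on cells and vesicles and breaks down pyrophosphate. It stood at 668 RPKM in Q317K, 55.3 in Q317R, 62.6 in PITX1, 61.7 in HOXD13 wt and 151 in the empty vector. Only Q317K was above the empty vector, by 4.41-fold (4.22 to 4.62), and the other 3 factor libraries lay close together below it. They were 2.74-fold lower in Q317R (2.54 to 2.96), 2.42-fold lower in PITX1 (2.24 to 2.60) and 2.45-fold lower in HOXD13 wt (2.27 to 2.65). The intervals of PITX1 and HOXD13 wt overlapped, as did those of HOXD13 wt and Q317R. The interval of the ratio of Q317R to HOXD13 wt, 0.90 (0.82 to 0.98), nevertheless left out equality.

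PHOSPHO1, a phosphatase that frees phosphate from phosphocholine and phosphoethanolamine inside the vesicle, was at 149.8 RPKM in Q317K, 21.6 in Q317R, 69.7 in PITX1, 26.9 in HOXD13 wt and 44.6 in the empty vector. It was 3.36-fold higher in Q317K than in the empty vector (3.07 to 3.67) and 2.07-fold lower in Q317R (1.82 to 2.36), while PITX1 was 1.56-fold higher (1.42 to 1.72) and HOXD13 wt 1.66-fold lower (1.46 to 1.88), both under 2-fold. PHOSPHO1 and MGP were the 2 members above the empty vector in the PITX1 library. The ratio of ALPL to PHOSPHO1, both per length, was 4.46 in Q317K, 2.56 in Q317R and 0.90 in PITX1. It was 2.29 in HOXD13 wt and 3.39 in the empty vector. PHOSPHO1 exceeded ALPL only in PITX1, where ALPL was below the empty vector (log2 ratio −1.26) and PHOSPHO1 above it (0.63). This excess is approximate, since levels of different genes compare only roughly.

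SMPD3 is neutral sphingomyelinase, a membrane enzyme that releases phosphocholine from sphingomyelin and is needed for bone mineralisation in mice. It was the least abundant of the 8 in every library but Q317R, where IBSP was lower, with 44.7 RPKM in Q317K, 13.4 in Q317R, 6.83 in PITX1, 9.53 in HOXD13 wt and 17.9 in the empty vector. Again Q317K was highest, 2.50-fold above the empty vector (2.26 to 2.77), and here PITX1 was lowest, 2.62-fold below it (2.23 to 3.07). HOXD13 wt was 1.88-fold lower (1.62 to 2.17) and Q317R 1.33-fold lower (1.17 to 1.51). SMPD3 and PHOSPHO1, which act in succession on the same phosphocholine, thus stood on opposite sides of the empty vector in PITX1.

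PANX3 and IFITM5 are membrane proteins of bone-forming cells. PANX3 forms channels that release ATP from osteoblasts and prehypertrophic chondrocytes, and was at 238 RPKM in Q317K, 22.1 in Q317R, 33.7 in PITX1, 19.3 in HOXD13 wt and 66.0 in the empty vector. IFITM5, a small protein of osteoblasts that is mutated in a form of human osteogenesis imperfecta, was at 210.5 RPKM in Q317K, 21.6 in Q317R, 23.7 in PITX1, 19.9 in HOXD13 wt and 47.8 in the empty vector. As for ALPL, Q317K was far on top for both, the empty vector came next, and PITX1 after it. Against the empty vector, PANX3 was 3.61-fold higher in Q317K (3.38 to 3.86) and IFITM5 4.40-fold higher (4.07 to 4.76). PANX3 was 2.98-fold lower in Q317R (2.67 to 3.34) and 3.42-fold lower in HOXD13 wt (3.02 to 3.88), and IFITM5 was 2.21-fold lower in Q317R (1.96 to 2.50) and 2.40-fold lower in HOXD13 wt (2.11 to 2.74). In PITX1 both lay at the edge of the 2-fold limit, 1.96-fold lower for PANX3 (1.77 to 2.16) and 2.02-fold lower for IFITM5 (1.79 to 2.27). With the pseudocount of 1 RPKM used for calling, their log2 ratios there were −0.95 and −0.98, so neither was counted. For PANX3 the intervals of Q317R and HOXD13 wt overlapped, and for IFITM5 those of PITX1, Q317R and HOXD13 wt each overlapped the next.

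The counts can be set beside those of all genes, but not as a test, since the members were chosen with earlier results of these data known. A gene was called when the log2 ratio of RPKM + 1 was at least 1 in size and its RPKM at least 5 in 1 or both libraries. Between Q317K and the empty vector 7 of the 8 were called higher, where 2.14% of 12720 genes were, and 1, SPP1, was called lower, where 2.87% were. The members had a median log2 ratio of 1.78 and all genes one of −0.01. Between Q317R and the empty vector none was called higher (1.89% of 12842 genes) and 6 were called lower (2.08%), all but MGP and SMPD3, with a median of −1.27 beside 0.02 for all genes. Between PITX1 and the empty vector MGP was called higher (1.97% of 12698 genes) and IBSP, ALPL and SMPD3 lower (2.80%), with a median of −0.97 beside −0.05. Between HOXD13 wt and the empty vector none was called higher (2.28% of 12840 genes) and 5 were called lower (2.62%), namely IBSP, MGP, ALPL, PANX3 and IFITM5, with a median of −1.25 beside −0.03. These 4 comparisons share the empty vector library, so a deviation of that 1 library would enter all of them.

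Comparisons that leave the empty vector out set the Q317K library against the others directly. All 8 were called higher in Q317K than in Q317R, where 2.50% of 12536 genes were higher and 2.59% lower, and none was lower. The log2 ratios ran from 1.48 for SPP1 to 4.33 for IBSP, and IBSP, ALPL, PANX3 and IFITM5 took places 1, 3, 4 and 5 among all genes. Against HOXD13 wt 7 were called higher in Q317K (3.01% of 12512 genes) and none lower (3.28%), with SPP1 at a log2 ratio of −0.59, and IBSP, PANX3, ALPL and IFITM5 held places 1, 4, 5 and 6. Against PITX1 6 were called higher in Q317K (1.92% of 12242 genes) and none lower (1.66%), with SPP1 at −0.29 and MGP at −0.12. All of these share the Q317K library. Between Q317R and HOXD13 wt, in contrast, only MGP was called higher (1.49% of 12646 genes) and only SPP1 lower (1.64%). The other 6 had log2 ratios from −0.31 for PHOSPHO1 to 0.46 for SMPD3. For IBSP the ratio of Q317R to HOXD13 wt was 0.98 (0.77 to 1.25), for PANX3 1.15 (0.99 to 1.33) and for IFITM5 1.09 (0.94 to 1.26). For ALPL it was 0.90 (0.82 to 0.98), for PHOSPHO1 0.80 (0.69 to 0.93) and for SMPD3 1.41 (1.21 to 1.64). The latter intervals did not include 1.

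**Figure D2:**
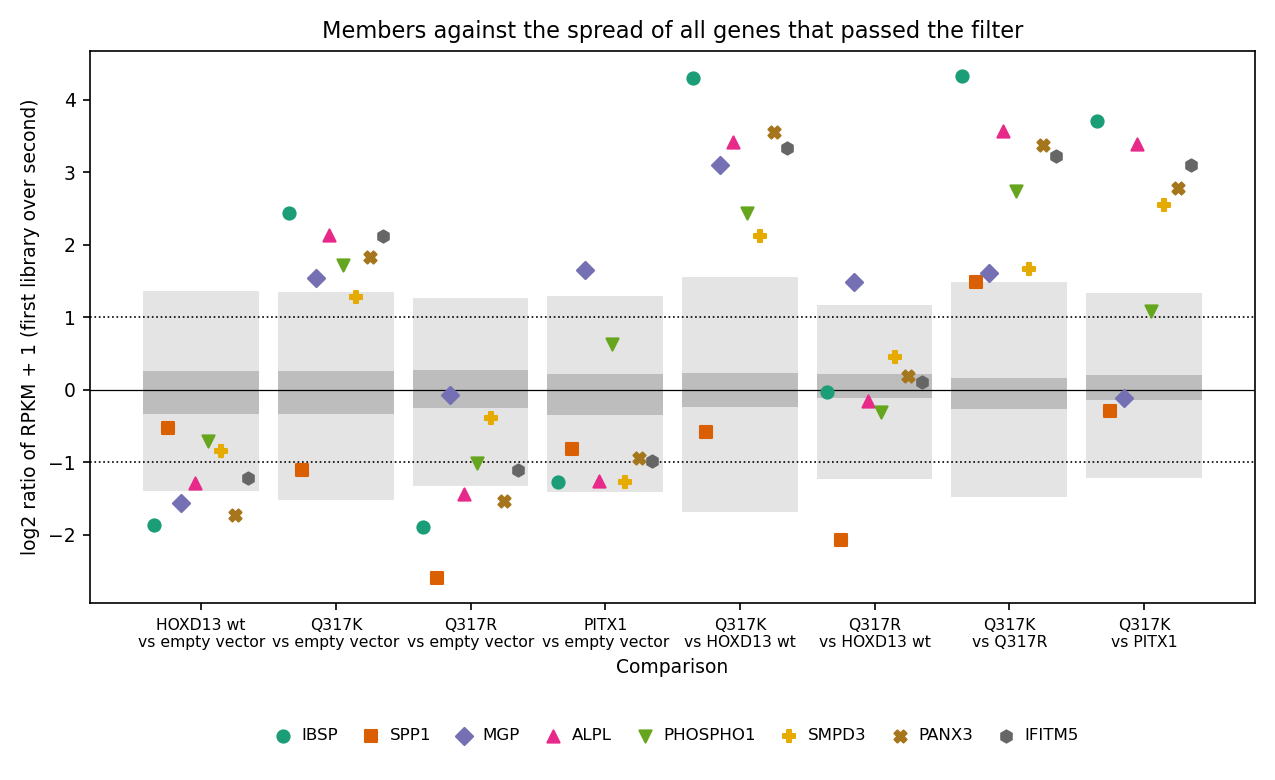
log2 ratio of RPKM + 1 of each gene (coloured markers) in 8 comparisons of 2 libraries, first-named over second, with the interquartile range of all genes that passed the filter in dark grey, their range without the outer 1% at each end in light grey, and dotted lines at 2-fold. In the 4 comparisons with Q317K first, all markers lie above 0 except SPP1 against the empty vector, HOXD13 wt and PITX1, and MGP against PITX1.

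The shape of each gene's profile over the 5 libraries was compared by a distance: log2(RPKM + 1) was centred on the gene's own mean, and the root mean square difference between 2 genes was taken, so that 0 means identical shapes. With 5 libraries this is a description. ALPL and IFITM5 were the closest pair, at 0.15 log2 units, followed by PANX3 with IFITM5 at 0.22 and ALPL with PANX3 at 0.26. IBSP lay 0.33 from ALPL, 0.35 from PANX3 and 0.41 from IFITM5. The 6 smallest distances were thus all among these 4. Among 5941 other genes that reached 20 RPKM in 1 or more libraries, the 3 nearest to IBSP were ALPL, PANX3 and IFITM5, and the 3 nearest to ALPL and to PANX3 were likewise the others of these 4. The third nearest named gene to IFITM5 was ANGPTL7, an angiopoietin-like secreted protein, at 0.38, with 162 RPKM in Q317K, 27.3 in Q317R, 15.8 in PITX1, 17.5 in HOXD13 wt and 26.8 in the empty vector. SMPD3 was 0.54 from IFITM5. Its nearest named genes were instead COCH (cochlin, an extracellular matrix protein) at 0.22, BPIFB4 at 0.31 and HPGDS (a prostaglandin D synthase) at 0.31. COCH was at 133 RPKM in Q317K, 28.4 in Q317R, 22.0 in PITX1, 25.6 in HOXD13 wt and 57.6 in the empty vector.

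The remaining members had other neighbours. Among named genes PHOSPHO1 was nearest to SPON1 (spondin, a matrix protein) at 0.18, GCHFR (the feedback regulator of GTP cyclohydrolase) at 0.18 and SYTL2 at 0.25. SPON1 read 48.7 RPKM in Q317K, 8.59 in Q317R, 29.2 in PITX1, 11.4 in HOXD13 wt and 14.7 in the empty vector. The named gene nearest to MGP was the row labelled as smooth muscle actin, ACTA2, at 0.27, then TNFSF4 at 0.30 and the intermediate filament gene NES at 0.36. ACTA2 was at 608 RPKM in Q317K, 249 in Q317R, 999 in PITX1, 117 in HOXD13 wt and 237 in the empty vector, though actin genes are alike in sequence and the counting could have divided their reads. SPP1 was at least 1.12 from every other member. Its nearest named genes were the matrix genes VWA1 at 0.26 and PRELP at 0.31 and the lysyl oxidase LOXL2 at 0.39. PRELP was at 234 RPKM in Q317K, 114 in Q317R, 502 in PITX1, 354 in HOXD13 wt and 584 in the empty vector, so that it shared with SPP1 a highest level in the empty vector and a lowest one in Q317R.

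**Figure D3:**
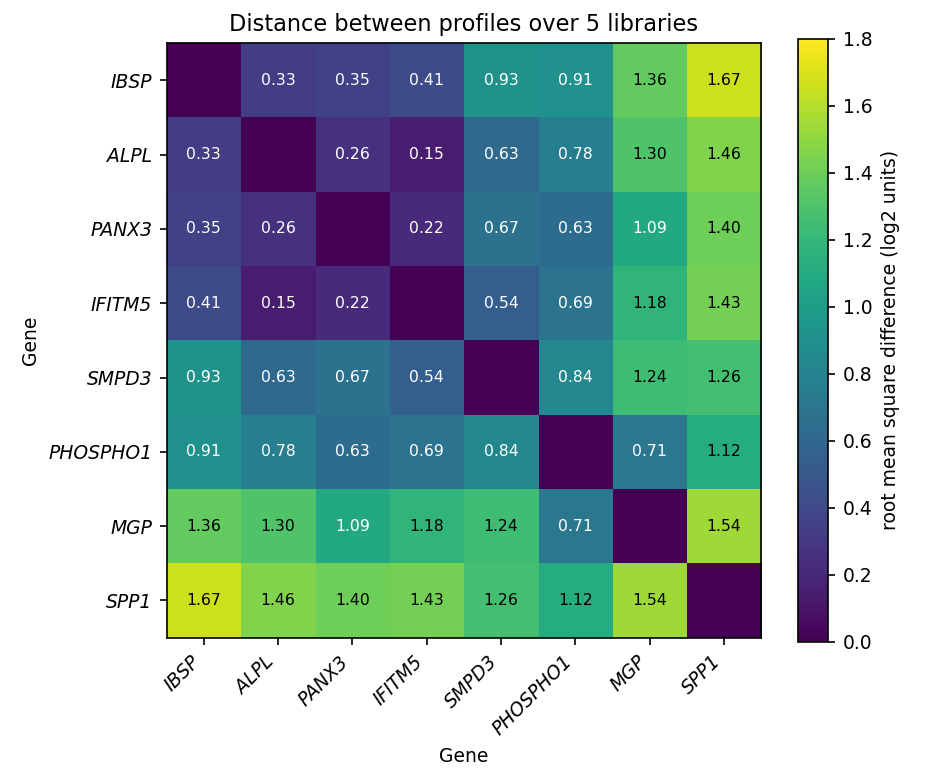
Distance between the profiles of each pair of the 8 genes over the 5 libraries (root mean square difference of centred log2(RPKM + 1), colour scale in log2 units). IBSP, ALPL, PANX3 and IFITM5 lie within 0.41 of each other, while SPP1 lies 1.12 or more from every other gene.

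Summed over the 8 genes, the level was 3285 RPKM in Q317K, 719.8 in Q317R, 2137 in PITX1, 717 in HOXD13 wt and 1450.5 in the empty vector. The make-up of these sums differed. SPP1 supplied 8.04% of the sum in Q317K, 13.0% in Q317R, 15.1% in PITX1, 55.5% in HOXD13 wt and 39.5% in the empty vector. MGP supplied 44.9% in Q317K, 66.8% in Q317R, 74.9% in PITX1, 23.8% in HOXD13 wt and 35.0% in the empty vector. Q317R and HOXD13 wt therefore reached nearly the same sum with different members, MGP in Q317R and SPP1 in HOXD13 wt. ALPL made up 20.3% in Q317K, against 2.93% to 10.4% elsewhere, and IBSP 7.17% in Q317K, against 0.80% to 2.95% elsewhere.

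**Figure D4:**
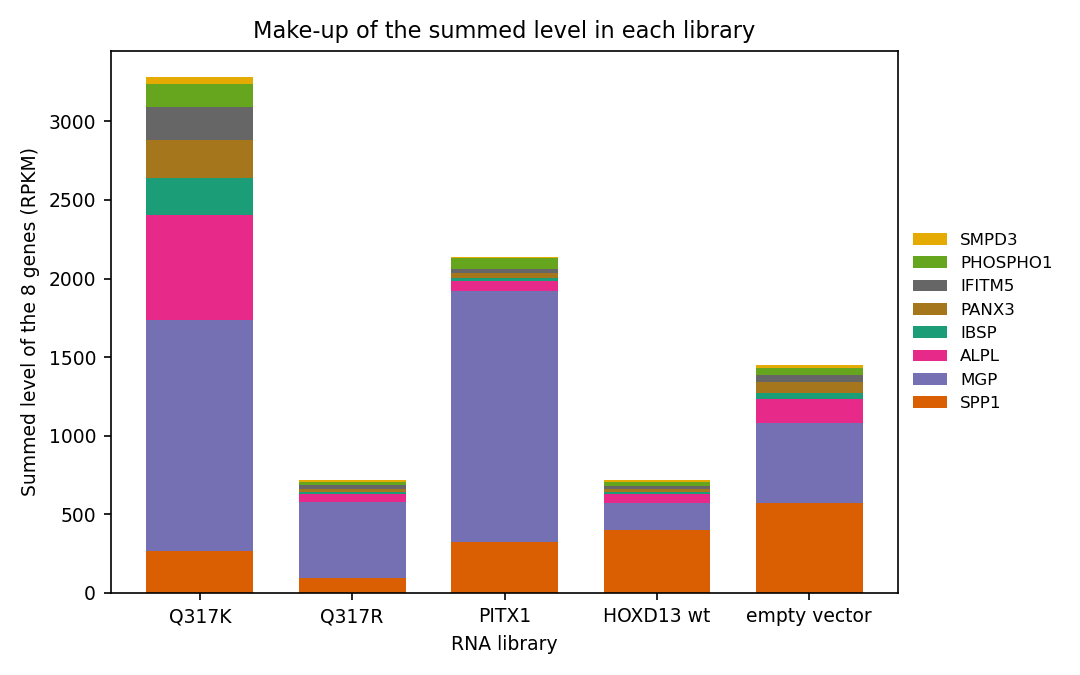
Summed RPKM of the 8 genes in each library, stacked by gene. Q317K has the tallest bar (3285), in which ALPL, IBSP, PANX3 and IFITM5 are visible as separate blocks, while the PITX1 bar (2137) is mostly MGP.

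Of 18 other genes of mineral handling on the list, 11 were matched by name and all 11 reached 5 RPKM in some library. In Q317K 2 were called higher than in the empty vector (2.14% of all genes) and 1 lower (2.87%). NT5E, the ectonucleotidase that makes adenosine, was at 25.5 RPKM in Q317K and 9.84 in the empty vector, and the vesicle annexin ANXA6 at 168 RPKM in Q317K and 82.7 in the empty vector. The log2 ratio of ANXA6, 1.01, was close to the limit. The choline-specific phosphodiesterase ENPP6 was at 5.46 RPKM in Q317K, 6.88 in Q317R and 7.77 in PITX1, and called lower in each of them than in the empty vector, at 20.2. None of the 11 was called higher in Q317R (1.89% of all genes), PITX1 (1.97%) or HOXD13 wt (2.28%). Called lower were 3 in Q317R (2.08% of all genes), 3 in PITX1 (2.80%) and 1 in HOXD13 wt (2.62%). AHSG, the mineral-binding fetuin, was called lower in these 3 libraries but not in Q317K, with 42.0 RPKM in Q317K, 18.6 in Q317R, 11.4 in PITX1, 17.6 in HOXD13 wt and 38.8 in the empty vector. In Q317R its log2 ratio, −1.02, was close to the limit. ENPP1, the ectoenzyme that makes the pyrophosphate ALPL removes, was at 7.77 RPKM in Q317K, 3.42 in Q317R, 11.5 in PITX1, 4.26 in HOXD13 wt and 7.90 in the empty vector, and was called lower in Q317R. There it passed the filter on low values only through the empty vector, with a log2 ratio of −1.01, so this call is weak. Carbonic anhydrase CA2 was called lower in PITX1, at 11.8 RPKM against 47.2 in the empty vector. The kinase FAM20C, which phosphorylates IBSP and SPP1, was called in none, at 60.6 RPKM in Q317K, 32.2 in Q317R, 54.2 in PITX1, 31.3 in HOXD13 wt and 33.0 in the empty vector. List medians of the log2 ratio to the empty vector were 0.14 in Q317K, −0.03 in Q317R, 0.07 in PITX1 and −0.42 in HOXD13 wt.

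Few transcription factors and matrix genes of osteoblasts could be matched by name. RUNX2 and SP7 were among the factors not analysed here. The homeobox factor DLX5 was at 27.6 RPKM in Q317K, 13.8 in Q317R, 14.3 in PITX1, 16.4 in HOXD13 wt and 29.7 in the empty vector. It was called lower in Q317R (2.08% of all genes) and PITX1 (2.80%). Its log2 ratios there, −1.06 and −1.01, were close to the limit. MSX2 stayed between 13.8 and 20.7 RPKM and was not called. Of 12 osteoblast matrix genes 4 were matched: COL1A2, SPARC, CTHRC1 and the collagen chaperone SERPINH1. The only one called against the empty vector was COL1A2, a chain of collagen I, in HOXD13 wt (2.28% of all genes higher), with 4433 RPKM against 2044 in the empty vector. None called among 4 in the other factor libraries is near the share of all genes, 1.89% to 2.87% in each direction. It read 3426 RPKM in Q317K. Relatives of the members were called in none of the 4 comparisons with the empty vector. These were PANX1, PANX2, SMPD2, SMPD4 and PHOSPHO2, the 5 matched of 10 listed, whose log2 ratios ran from −0.41 to 0.78. Of all genes 1.89% to 2.87% were called in each direction in those comparisons, so that none called among 5 is near that share. The IFITM genes besides IFITM5 were not analysed here.

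Genes listed for hypertrophic cartilage, a tissue that also mineralises, were in part placed otherwise. Of the 6 matched of 7 listed, 3 were called lower in Q317K than in the empty vector, where 2.87% of all genes were. These were COL10A1, SOX9 and VEGFA, and none was called higher (2.14%). In PITX1 3 were also called lower, COL10A1, IHH and SOX9 (2.80% of all genes), and none higher (1.97%). The median log2 ratio was −1.07 in PITX1, against −0.92 in Q317K. In HOXD13 wt COL10A1 was called higher (2.28% of all genes) and IHH lower (2.62%), with a median of −0.35. In Q317R none was called higher (1.89%) or lower (2.08%), with a median of −0.32. None called among 6 is near those shares. COL10A1, the collagen of hypertrophic cartilage, was at 15.0 RPKM in Q317K, 40.3 in Q317R, 19.7 in PITX1, 502 in HOXD13 wt and 67.7 in the empty vector, so that HOXD13 wt, where 5 of the 8 were called lower, had the highest COL10A1, and Q317K the lowest. SOX9, the chondrocyte factor, was at 129 RPKM in Q317K, 302 in Q317R, 133 in PITX1, 259.7 in HOXD13 wt and 338 in the empty vector. It is also one of the chondrocyte markers, so its calls enter both lists. The angiogenic VEGFA was at 23.8 RPKM in Q317K and 58.8 in the empty vector. The hedgehog ligand IHH was called lower in PITX1 and HOXD13 wt, with 22.7 RPKM in Q317K, 23.97 in Q317R, 11.9 in PITX1, 12.5 in HOXD13 wt and 33.8 in the empty vector. MMP13, the collagenase of late hypertrophic cartilage, was called in none and lay between 10.3 and 19.8 RPKM. MEF2C was highest in Q317K, at 15.2 RPKM, with 8.29 in Q317R, 5.21 in PITX1, 4.23 in HOXD13 wt and 8.91 in the empty vector. It was not called against the empty vector.

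The marker lists give levels of cell type markers as far as names could be matched, and do not measure the share of each cell type. The summed level of the 6 chondrocyte markers was 2319 RPKM in Q317K, 12995 in Q317R, 4060 in PITX1, 5471 in HOXD13 wt and 18063 in the empty vector. Most of this sum was COL2A1 in every library, with 15370 RPKM in the empty vector. The sum was thus low both in Q317K, where 7 of the 8 genes were called higher, and in HOXD13 wt, where 5 were called lower. In HOXD13 wt, however, COMP (560 RPKM against 649 in the empty vector) and SOX9 (260 against 338) were not called. In Q317R, where 6 of the 8 were called lower, COMP was the only one of the 6 chondrocyte markers called lower. Of 6 osteoblast markers only IBSP and ALPL were matched by name, so this list holds no gene outside the 8. Of the osteoblast genes given further above, DLX5, MSX2 and the 4 matrix genes lie outside the 8. None of these was called higher in Q317K than in the empty vector, which is near the share of all genes (2.14%). Of 7 osteoclast markers 2 were matched, with a summed level between 11.9 and 15.4 RPKM, and of 6 leukocyte markers LAPTM5 was matched, at 21.9 RPKM in Q317K, 5.06 in Q317R, 14.3 in PITX1, 14.5 in HOXD13 wt and 11.5 in the empty vector. The 3 smooth muscle markers matched summed to 925 RPKM in Q317K, 365 in Q317R, 1783 in PITX1, 204 in HOXD13 wt and 553 in the empty vector, the same order of libraries as for MGP. The excess of Q317K over the empty vector in this sum came from the ACTA2 row, since TAGLN, a smooth muscle actin-binding protein, was at 315.5 RPKM in Q317K, 115 in Q317R, 782 in PITX1, 86.4 in HOXD13 wt and 315.3 in the empty vector. Within this list MYH11, a myosin of mature smooth muscle, was at 1.00 to 1.13 RPKM throughout. Skeletal muscle markers (3 of 6 matched) summed to between 20.1 and 38.3 RPKM, with Q317K highest, and endothelial ones (2 of 4) to 5.11 to 8.22 RPKM. Erythroid markers (4 of 5) summed to 870 RPKM in PITX1 and to between 15.2 and 24.2 RPKM elsewhere. The excess came from HBE (747 RPKM in PITX1, 6.77 in the empty vector) and HBBA (116 in PITX1, 28.98-fold above the empty vector). The other matched markers, HBAD and TAL1, were lowest in PITX1, at 2.28 and 4.35 RPKM (3.17 and 5.85 in the empty vector). For both, the counting interval of the ratio to the empty vector included 1. The rise of HBE and HBBA stands beside every PITX1 value given above. Whether a marker was without reads cannot be read from these values, since no row of the table is at 0 and the lowest holds 1 read. The part of these cell types in the members' levels was not tested.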

How the data were processed

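RNA was measured in 5 cultures, 1 library each. The authors deposited an RPKM table of 21998 Ensembl transcripts (units per the file headers), and no source here names how reads were aligned or counted, or whether strand was used. RPKM values were turned back into whole reads, transcript lengths and library totals from the ratios between columns, and all 21998 rows came out whole within a tolerance of 0.001. The lowest value corresponds to 1 read, and no row is at 0, so rows without reads may have been left out or a read added before deposit. Reads served only for intervals: exact (Clopper-Pearson) for ratios and exact Poisson for levels, both at 95%; sequenced reads are not independent molecules. Ratios for calling used a pseudocount of 1 RPKM, which understates differences of low genes, while folds in the text have none. Symbols were written by hand for entries labelled by UniProt names. GRCg7b gene names from RefSeq gave only the order of neighbours. The members and lists were chosen with earlier results of these data known. Named are the 8 genes, listed genes called in 1 or more libraries or defining their list, and for each member the 3 named genes of nearest profile. FAM20C, MSX2, MMP13, MEF2C, HBAD, TAL1 and the chromosomal neighbours SPARCL1, NUDT9 and PRKG2 were named outside this rule, after their values were seen. 1 of the listed transcription factors is not reported here. MACS2 peak lists, named in the submitters' processing notes, were not used, since no source here names their genome build. Steps were tested on simulated data. Scripts used Python 3.11.15, numpy 2.4.6, pandas 2.3.3, scipy 1.17.1 and matplotlib 3.10.9.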

Additional observations from a re-analysis of the deposited data

How the results depend on the processing

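The counts of members called, in both directions of 8 comparisons, were recomputed with 7 other settings: pseudocounts of 0.1 and 5, no filter on low values, an RPKM of at least 10, the longest transcript of a gene, and median-of-ratios or upper-quartile scaling. All 112 recounts stayed within 1.5 times the reported count. With a pseudocount of 5 the members lower than the empty vector numbered 4 in Q317R, without PHOSPHO1 (log2 ratio −0.90) and IFITM5 (−0.99), and 2 in PITX1, without SMPD3 (−0.95). With 0.1 they numbered 4 in PITX1, where IFITM5 reached −1.01. Of 320 recomputed member ratios 319 kept their sign and 316 their side of 2-fold. The exception in sign was IBSP between Q317R and HOXD13 wt, −0.03 as reported and 0.12 with the longest transcript. The counts over all genes fell by more than 1.5 times with a pseudocount of 5: higher against lower genes numbered 164 and 228 in Q317K (272 and 365 as reported), 160 and 223 in PITX1 (250 and 356), and 118 and 135 between Q317R and HOXD13 wt (188 and 208). Between Q317K and PITX1 they numbered 139 and 122 (235 and 203). Higher genes alone passed that limit in Q317R (144, reported 243) and HOXD13 wt (191, reported 293), and lower genes alone between Q317K and HOXD13 wt (256, reported 410) and between Q317K and Q317R (211, reported 325). No paired analysis was possible because each group had 1 library, which also leaves no replicate to leave out. In settings chosen after seeing the data, the profile distance of IBSP lay between 0.21 and 0.36 from ALPL and between 1.55 and 1.70 from SPP1. Depth limits most IBSP in HOXD13 wt and Q317R, with 136 and 150 reads.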
